A study of Mus musculus with 39 samples.

Results

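Bdh1, Acat1, Cpt1a, Cpt2, Acadm, Acadvl, Pdk4 and Ppara, genes of ketone body formation and fatty acid oxidation, were followed along the gut of 2 inbred mouse strains. They were taken as a fixed list of 8 names from 34600 entries in each of 3 tissue tables, and all 8 were found in every table. RNA was taken from colon, ileum and a sample labelled duodenum/jejunum in 13 mice, 6 BALB/cJ and 7 C57BL/6J, which gave 39 libraries of total RNA depleted of ribosomal RNA. No treatment or transgene is named in the labels, and sex, age, feeding state and batch are not given there. Each mean below is in TPM, a length-corrected share of all transcripts, over 6 BALB/cJ or 7 C57BL/6J mice with its standard deviation (SD). TPM corrects for transcript length, so levels of different genes can be set side by side, but it keeps no read depth.

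Fatty acids enter mitochondria as carnitine esters. Cpt1a, in the outer membrane, makes the ester and is the step that malonyl-CoA inhibits, and Cpt2, in the inner membrane, turns it back into acyl-CoA. Acadvl and Acadm start beta-oxidation of very long and medium chains. Acat1 joins acetyl-CoA units, or splits acetoacetyl-CoA when ketone bodies are used, and Bdh1 interconverts acetoacetate and beta-hydroxybutyrate. Pdk4 inhibits pyruvate dehydrogenase and so spares glucose carbon, and Ppara is the fatty acid sensing nuclear receptor whose textbook targets include several of these genes. Colonic epithelium is known to oxidise butyrate made by bacteria, and enterocytes of the upper small intestine take up dietary fat.

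All 8 are protein-coding genes in GENCODE M21 on build GRCm38. Bdh1 (ENSMUSG00000046598.15) lies on the plus strand of chromosome 16 from 31422280 to 31458901, and Acat1 (ENSMUSG00000032047.5) on the minus strand of chromosome 9 from 53580522 to 53610382. Cpt1a (ENSMUSG00000024900.5) lies on the plus strand of chromosome 19 from 3322334 to 3385733, and Cpt2 (ENSMUSG00000028607.16) on the minus strand of chromosome 4 from 107903981 to 107923610. Acadm (ENSMUSG00000062908.12) spans 153922357 to 153944632 on chromosome 3 and Acadvl (ENSMUSG00000018574.14) spans 70010183 to 70015411 on chromosome 11, both on the minus strand. Pdk4 (ENSMUSG00000019577.6) spans 5483351 to 5496309 on the minus strand of chromosome 6, and Ppara (ENSMUSG00000022383.13) spans 85734983 to 85802819 on the plus strand of chromosome 15.

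Promoters of 7 of the 8 genes, all but Acat1, were found in RefSeq (GRCm38.p6). They were searched on both strands, from 250 bases before to 50 bases after the start, for AGGTCA, the core motif that nuclear receptors such as Ppara bind in pairs. Cpt1a, Acadm and Acadvl each held 1 copy, and at least 1 was in 16.3% of the 32851 promoters in the table. A pair of AGGTCA copies in the same direction with 1 base between, with up to 2 mismatches in all, was in none of the 7 and in 3.86% of all promoters. A single copy can be part of such a pair. The windows from -250 to -51 of these 3 genes, and of Pdk4, whose level varied most along the gut, are shown 5′ to 3′ on the gene's strand. Capitals mark AGGTCA or its reverse complement, and such a match is a description of the letters, not a binding site.
Cpt1a: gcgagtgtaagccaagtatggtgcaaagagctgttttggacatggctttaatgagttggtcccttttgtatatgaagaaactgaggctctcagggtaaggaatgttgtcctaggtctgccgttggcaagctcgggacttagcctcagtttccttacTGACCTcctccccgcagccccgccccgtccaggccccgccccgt
Acadm: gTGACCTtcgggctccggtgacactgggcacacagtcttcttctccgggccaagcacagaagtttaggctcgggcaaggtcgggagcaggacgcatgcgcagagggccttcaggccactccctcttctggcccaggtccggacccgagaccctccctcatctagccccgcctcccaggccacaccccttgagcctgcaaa
Acadvl: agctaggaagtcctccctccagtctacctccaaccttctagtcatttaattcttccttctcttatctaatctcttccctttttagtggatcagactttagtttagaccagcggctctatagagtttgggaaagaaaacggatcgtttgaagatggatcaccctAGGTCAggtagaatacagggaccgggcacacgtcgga
Pdk4: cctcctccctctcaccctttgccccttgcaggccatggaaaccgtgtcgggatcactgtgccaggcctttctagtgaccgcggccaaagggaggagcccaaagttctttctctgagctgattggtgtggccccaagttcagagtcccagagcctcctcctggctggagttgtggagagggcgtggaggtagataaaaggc
These windows are chr19:3323051-3323250 on the plus strand and chr3:153944694-153944893, chr11:70015479-70015678 and chr6:5496329-5496528 on the minus strand. The motif was on the opposite strand in Cpt1a, starting at -94, and in Acadm, starting at -249, and on the gene's own strand in Acadvl, starting at -87.

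The libraries were first checked against epithelial and region markers. Epcam, an epithelial surface gene, was at 693 TPM or more in every library. The ileal bile acid binding gene Fabp6 ranged from 3766 to 11144 TPM in 12 ileum libraries and from 2.99 to 96.0 TPM in 12 duodenum/jejunum libraries. Mouse 2 of C57BL/6J had 22.1 TPM in its ileum-labelled library and 6111 TPM in the one labelled duodenum/jejunum. Tmprss15, the enteropeptidase gene of the upper small intestine, was at 51.2 TPM in that mouse's library labelled ileum, where the other 12 reached at most 0.699 TPM. The library of that mouse labelled duodenum/jejunum had Tmprss15 at 39.2 TPM, within the 12.2 to 68.8 TPM of the other 12, and so held high levels of markers of both regions. Slc10a2, another ileal marker, was at 4.10 TPM in that mouse's library labelled ileum, where the other 12 were at 64.6 to 229 TPM. Slc10a2 was at 86.7 TPM in its library labelled duodenum/jejunum, where the other 12 reached at most 9.30 TPM. The ileum-labelled library went against its label for Fabp6, Slc10a2 and Tmprss15, and the duodenum/jejunum-labelled one for Fabp6 and Slc10a2. Both were kept. For part of the results that rest on them, values are also given without this mouse.

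Along the gut, Cpt1a was highest in the colon, and Pdk4 and Ppara were highest in the duodenum/jejunum. Bdh1, Acat1, Acadvl and Pdk4 had their lowest mean in the ileum in both strains. Cpt2 had its lowest in the colon in BALB/cJ, while Acadm was somewhat higher in the colon. Of the 8 genes, 6 were higher and 1 lower in the colon than in the ileum, in limma at an adjusted p under 0.05, where 65.6% of 17126 genes tested passed, 46.5% as higher and 19.1% as lower. Against the duodenum/jejunum the ileum was lower for 5 of 8 and higher for 0, where 42% of genes passed, with 9.81% of all genes lower. The colon was higher for 2 of 8 and lower for 3 against the duodenum/jejunum, where 72.9% passed, 55.4% as higher and 17.5% as lower. A large part of all genes differed between these tissues, and the shares called among the 8 are read against that.

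**Figure D1:**
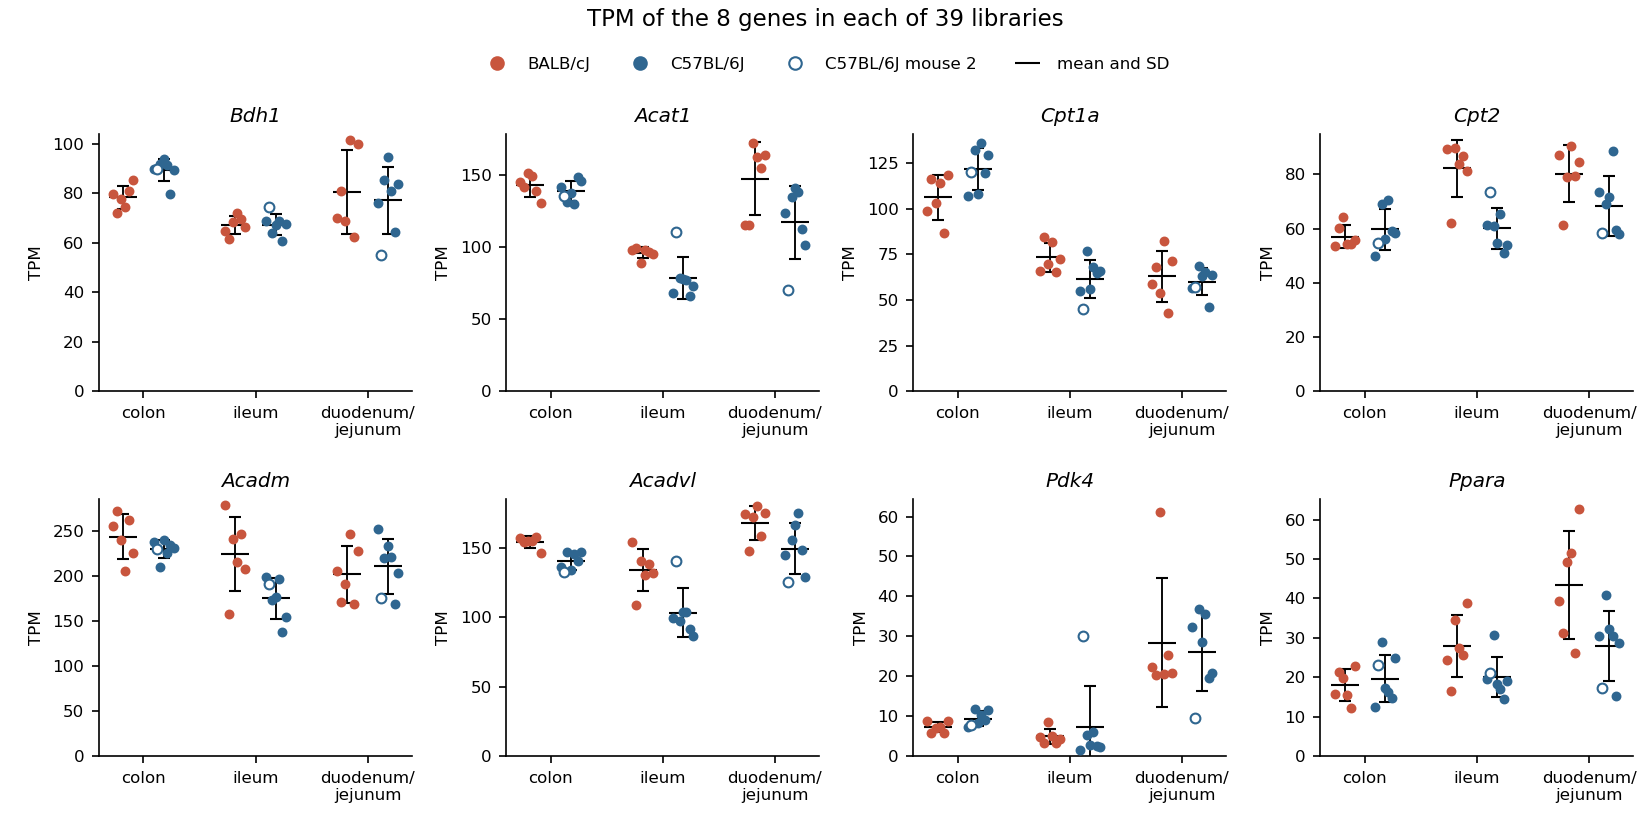
TPM of each of the 8 genes (vertical axes, from 0) in every library, by tissue and strain, with mean and SD. Open points are C57BL/6J mouse 2, whose Pdk4 point stands at 30.1 TPM in the ileum, where the other C57BL/6J mice reach at most 5.90 TPM; the lower end of that SD bar lies below 0 and is not drawn.

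The ketone body genes came first. Bdh1 in the colon ranged from 71.8 to 85.2 TPM with a median of 78.7 in BALB/cJ and from 79.6 to 93.7 TPM with a median of 89.8 in C57BL/6J. In the ileum it ranged from 61.6 to 71.8 TPM (median 67.4) and from 60.5 to 74.6 TPM (median 67.5). In the duodenum/jejunum it spread more widely, from 62.1 to 101 TPM (median 75.4) and from 55.0 to 94.7 TPM (median 80.7). Colon and ileum did not overlap in C57BL/6J and touched in BALB/cJ, and in all 13 mice the colon was above the ileum. The difference of log2(TPM + 1) was 0.31 ± 0.07 (SE, adjusted p in limma 1.4e-04) between colon and ileum. It was -0.21 ± 0.07 (0.0152) between ileum and duodenum/jejunum, and 0.11 ± 0.07 (0.164) between colon and duodenum/jejunum.

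Acat1, the thiolase, was lowest in the ileum in 12 of 13 mice. In the colon it ranged from 130.5 to 152 TPM (median 143) in BALB/cJ and from 130.3 to 149 TPM (median 138) in C57BL/6J. In the ileum it ranged from 89.0 to 99.3 TPM (median 97.4) and from 66.1 to 110.3 TPM (median 77.5). In the duodenum/jejunum it ranged from 115 to 172 TPM (median 159) and from 70.0 to 141 TPM (median 124). No ileum library reached the colon range in either strain, and C57BL/6J mouse 2 gave both the highest ileum value and the lowest duodenum/jejunum value of its strain. Colon exceeded ileum by 0.70 ± 0.08 (adjusted p in limma 2.6e-09), and the ileum lay at -0.57 ± 0.08 relative to the duodenum/jejunum (9.8e-07). The mean ratio of colon to ileum was 1.49-fold in BALB/cJ and 1.76-fold in C57BL/6J, or 1.89-fold without mouse 2.

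The 2 carnitine palmitoyltransferase genes did not follow one another along the gut. Cpt1a was highest in the colon in all 13 mice, at 86.4 to 118 TPM (median 108.5) in BALB/cJ and 107 to 136 TPM (median 120.1) in C57BL/6J. In the ileum it ranged from 65.5 to 84.5 TPM (median 71.1) and from 44.9 to 76.6 TPM (median 64.8), and in the duodenum/jejunum from 43.1 to 82.3 TPM (median 63.3) and from 46.0 to 68.4 TPM (median 63.3). Colon did not overlap with either part of the small intestine in either strain. Cpt1a was higher in the colon by 0.76 ± 0.08 against the ileum (adjusted p in limma 3.7e-10) and by 0.89 ± 0.08 against the duodenum/jejunum (4.3e-12), which was 1.69-fold in BALB/cJ and 2.03-fold in C57BL/6J. Between the ileum and the duodenum/jejunum its difference was 0.13 ± 0.08 (0.193).

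Cpt2 differed from Cpt1a in that its colon level was the lowest in BALB/cJ. It was at 57.03 ± 4.19 TPM in BALB/cJ colon against 59.7 ± 7.59 in C57BL/6J colon, at 82.1 ± 10.4 against 60.1 ± 7.67 in ileum, and at 80.3 ± 10.4 against 68.4 ± 11.02 in duodenum/jejunum. The tissues overlapped in both strains. Averaged over the strains, the colon differed by -0.26 ± 0.07 from the ileum (adjusted p in limma 0.00183) and by -0.33 ± 0.07 from the duodenum/jejunum (9.4e-05). The ratio of mean ileum to mean colon was 1.44-fold in BALB/cJ, where all 6 mice had more in the ileum. In C57BL/6J it was 1.01-fold, or 0.956-fold without mouse 2, and 5 of the 7 mice had more Cpt2 in the colon than in the ileum.

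The acyl-CoA dehydrogenase genes had the highest means of the 8, Acadm before Acadvl, in all 6 groups. Acadm, for medium chains, ran from 175 ± 22.8 TPM in C57BL/6J ileum to 243 ± 24.9 TPM in BALB/cJ colon. It was higher in the colon by 0.26 ± 0.08 against the ileum (adjusted p in limma 0.00272) and by 0.21 ± 0.08 against the duodenum/jejunum (0.0153, or 0.0562 without BALB/cJ mouse 5). Acadvl, for very long chains, was at 154 ± 4.17 TPM in BALB/cJ colon against 140 ± 6.19 in C57BL/6J colon, at 134 ± 14.97 against 103 ± 17.4 in ileum, and at 168 ± 12.3 against 149 ± 18.2 in duodenum/jejunum. It was lowest in the ileum in 12 of 13 mice. Colon exceeded ileum by 0.33 ± 0.06 (6.0e-06), and ileum minus duodenum/jejunum was -0.43 ± 0.06 (3.3e-07). Colon and duodenum/jejunum differed by -0.10 ± 0.06 (0.122, or 0.0349 without C57BL/6J mouse 2).

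Pdk4, the kinase, had the lowest mean of the 8 in all 6 groups. Among the 8 it had the largest differences of the colon and of the ileum from the duodenum/jejunum. Between colon and ileum Cpt1a differed slightly more (0.76 against 0.72). In the duodenum/jejunum it ranged from 20.2 to 61.1 TPM (median 21.6) in BALB/cJ and from 9.47 to 36.9 TPM (median 28.6) in C57BL/6J. In the colon it ranged from 5.83 to 8.82 TPM (median 7.14) and from 7.21 to 11.8 TPM (median 8.90), and in the ileum from 3.26 to 8.63 TPM (median 4.60) and from 1.47 to 30.1 TPM (median 2.77). The duodenum/jejunum was highest in 12 of 13 mice, and the exception was C57BL/6J mouse 2, which gave the highest ileum and the lowest duodenum/jejunum value of its strain. Ileum minus duodenum/jejunum was -2.23 ± 0.25 (adjusted p in limma 1.3e-08), or -2.54 (3.5e-14) without that mouse. In C57BL/6J the mean was 3.64-fold higher in the duodenum/jejunum than in the ileum with mouse 2 and 8.58-fold without it, and in BALB/cJ it was 5.80-fold higher. Colon minus duodenum/jejunum was -1.51 ± 0.25 (2.0e-06), and colon minus ileum was 0.72 ± 0.25 (0.0133).

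Ppara, the receptor, was higher in the duodenum/jejunum than in the colon or the ileum. It ranged from 12.2 to 22.7 TPM (median 17.8) in BALB/cJ and from 12.5 to 28.998 TPM (median 17.2) in C57BL/6J colon, and from 16.4 to 38.7 TPM (median 26.5) and from 14.5 to 30.8 TPM (median 18.96) in the ileum. In the duodenum/jejunum it ranged from 26.1 to 62.6 TPM (median 44.3) and from 15.3 to 40.8 TPM (median 30.4). Colon and duodenum/jejunum did not overlap in BALB/cJ and overlapped in C57BL/6J, and the duodenum/jejunum was highest in 12 of 13 mice. The exception was C57BL/6J mouse 2, whose libraries labelled ileum and duodenum/jejunum went against region markers. Colon minus duodenum/jejunum was -0.83 ± 0.16 (adjusted p in limma 1.2e-05) and ileum minus duodenum/jejunum -0.51 ± 0.16 (0.00783). Colon minus ileum was -0.32 ± 0.16 (0.0722), and with the mouse as a block, which pairs the tissues of 1 animal, the same difference had an adjusted p of 0.0147.

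**Figure D2:**
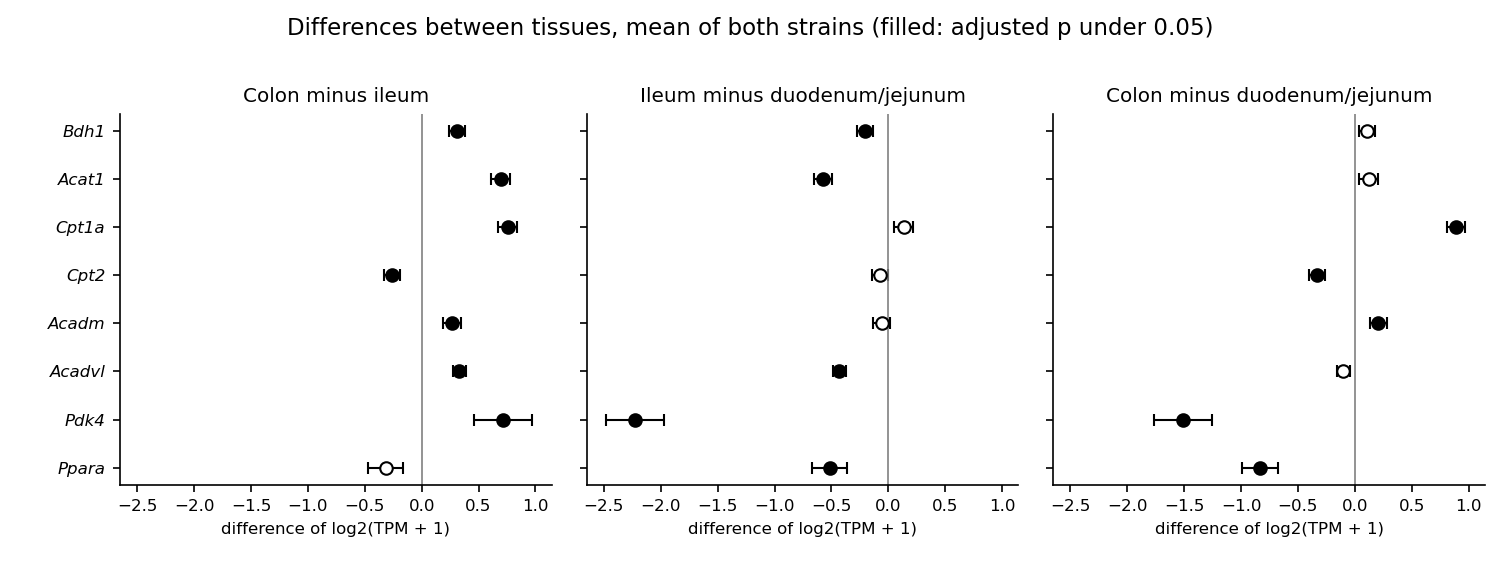
Differences of log2(TPM + 1) between tissues (horizontal axes), averaged over both strains, with SE bars, for the 8 genes (vertical axis). Filled points passed an adjusted p under 0.05; Cpt1a lies at 0.89 and Pdk4 at -1.51 for colon minus duodenum/jejunum.

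Part of these directions depends on how the libraries are scaled. The median difference over all 17126 genes was 0.17 for colon minus ileum, 0.12 for ileum minus duodenum/jejunum and 0.28 for colon minus duodenum/jejunum, and size factors that centre the genes bring it near 0. With them, Acat1, Cpt1a and Cpt2 kept their calls between colon and ileum, at 0.49, 0.55 and -0.46. Bdh1, Acadm, Acadvl and Pdk4 lost theirs, at 0.11, 0.06, 0.12 and 0.53, and Ppara gained one at -0.51 (adjusted p in limma 0.00345). Against the duodenum/jejunum the colon values of Bdh1 and Acat1 turned to -0.24 and -0.23 and were called, that of Acadm turned to -0.14 and was not, and Acadvl was called at -0.45. Cpt1a, Cpt2, Pdk4 and Ppara kept direction and call between colon and duodenum/jejunum under both scalings. All 5 calls between ileum and duodenum/jejunum were also made with them.

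Cell type markers moved with the tissues. All 12 markers of small intestinal enterocytes were lower in the colon than in the ileum, with summed levels of 498 to 700 TPM in colon libraries, 8237 to 57137 in ileum libraries and 27402 to 56600 in duodenum/jejunum libraries. All 10 smooth muscle markers were higher in the colon, with sums of 3761 to 5918 TPM there, 263 to 1848 in the ileum and 428 to 1575 in the duodenum/jejunum. Sums of 10 pancreatic acinar markers reached 5475 and 6657 TPM in the duodenum/jejunum of BALB/cJ mouse 1 and C57BL/6J mouse 6 and were 7.93 TPM or less in every ileum library. Their part in the differences of the 8 genes was not tested. In bulk tissue fewer cells of a type and less RNA per cell cannot be told apart.

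**Figure D3:**
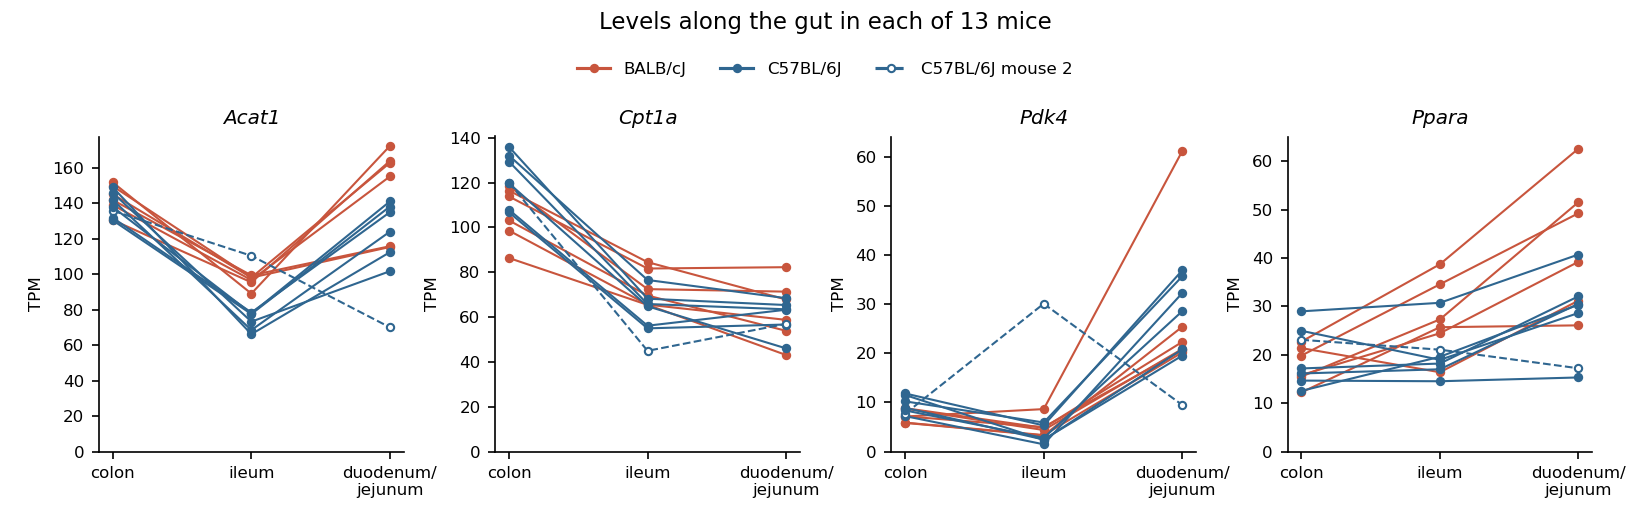
TPM of Acat1, Cpt1a, Pdk4 and Ppara (vertical axes, from 0) in the 3 tissues of each of 13 mice, 1 line per mouse. Cpt1a is highest in the colon in 13 mice, and Pdk4 and Ppara are highest in the duodenum/jejunum in 12. The dashed line of C57BL/6J mouse 2 falls from ileum to duodenum/jejunum for Acat1, Pdk4 and Ppara, where every other mouse rises.

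Between the strains, the genes called among the 8 were not the same in the 3 tissues. In the direct tests between tissues given below, only the strain difference of Cpt2 passed, between colon and ileum. Acat1, for example, was at 0.30 in the ileum, where it was called, and at 0.34 in the duodenum/jejunum, where it was not. In the colon BALB/cJ had less Bdh1 and more Acadvl than C57BL/6J. In the ileum it had more Cpt2, Acadvl and Acat1, and in the duodenum/jejunum none of the 8 passed. The counts called in limma were 2 of 8 in the colon, where 25.3% of 15769 genes passed (14.5% higher and 10.8% lower). They were 3 of 8 in the ileum, all higher, where 20.4% of 15537 passed (17.2% higher), and 0 of 8 in the duodenum/jejunum, where 9.5% of 15306 passed. At an unadjusted p under 0.05 only Ppara was counted there. Mice of a strain are numbered separately in the labels, and equal numbers in the 2 strains are not the same animal.

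In the colon, Bdh1 was at 78.3 ± 4.81 TPM in BALB/cJ (n = 6) and 89.3 ± 4.55 in C57BL/6J (n = 7), a difference of -0.19 ± 0.05 (SE, adjusted p in limma 0.0105). The ranges overlapped because C57BL/6J mouse 6, at 79.6 TPM, lay within the BALB/cJ range, and the other 6 C57BL/6J mice were at 89.2 TPM or more, above all BALB/cJ mice. Acadvl was at 154 ± 4.17 against 140 ± 6.19 TPM, a difference of 0.13 ± 0.04 (0.0159, or 0.092 with centring size factors). Of the BALB/cJ mice, 5 were at 154 TPM or more, above every C57BL/6J mouse, and mouse 6 was at 146. The ratio of means was 1.14-fold for Bdh1, lower in BALB/cJ, and 1.10-fold for Acadvl, higher in BALB/cJ. Pdk4 (7.25 ± 1.31 against 9.38 ± 1.82 TPM) and Cpt1a (106 ± 12.4 against 122 ± 11.5 TPM) had adjusted p of 0.0768 and 0.0911, and the others were at 0.387 or more. Without C57BL/6J mouse 1, Pdk4 was called at -0.38 (adjusted p in limma 0.0422).

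Other cells differed between the colons of the strains as well. Of 9 tested markers of proliferating crypt cells, 8 were lower in BALB/cJ, where 10.8% of all genes were, with summed levels of 229 to 323 against 337 to 487 TPM. Of 11 epithelial markers 3 were lower (11298 to 12585 against 12111 to 12602 TPM). All 9 markers of B and plasma cells were higher (363 to 1182 against 219 to 528 TPM), where 14.5% of all genes were. Of 9 tested adipocyte markers 6 were higher and 0 lower (227 to 446 against 132 to 258 TPM). Higher with 0 lower were also 6 of 7 macrophage, 5 of 8 fibroblast and endothelial, 5 of 7 T cell and 4 of 5 erythroid markers. Their part in the differences of Bdh1 and Acadvl was not tested.

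In the ileum, Cpt2 showed the largest of the called differences. Its levels ranged from 61.9 to 89.6 TPM (median 85.4) in BALB/cJ and from 51.0 to 73.3 TPM (median 60.8) in C57BL/6J. BALB/cJ mouse 2 lay inside the C57BL/6J range and the other 5 BALB/cJ mice were at 81.2 TPM or more, above all C57BL/6J mice. The difference was 0.44 ± 0.10 (adjusted p in limma 0.00916) and the ratio of means 1.37-fold, or 1.42-fold without C57BL/6J mouse 2. Acadvl ranged from 109 to 154 TPM (median 135) in BALB/cJ and from 86.8 to 140.2 TPM (median 99.2) in C57BL/6J. Its strains overlapped only through C57BL/6J mouse 2, and the difference of 0.38 ± 0.11 (0.0257) was 0.46 (0.0014) without it. Leaving out BALB/cJ mouse 1, BALB/cJ mouse 5 or C57BL/6J mouse 6 took Acadvl to adjusted p of 0.0586, 0.0561 and 0.0522.

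Acat1 in the ileum was at 96.1 ± 3.71 TPM for BALB/cJ against 78.8 ± 14.7 for C57BL/6J, or 73.6 ± 5.25 without mouse 2. With all 13 mice the difference was 0.30 ± 0.10 and its adjusted p in limma, 0.0487, stood just inside the threshold. Without C57BL/6J mouse 2 the strains did not overlap and the difference was 0.38 (5.1e-04). Leaving out any 1 of the other 12 mice instead gave adjusted p of 0.0542 to 0.0939. Cpt1a, Acadm and Ppara were also higher in BALB/cJ in the mean (73.2 against 61.6, 224 against 175 and 27.9 against 20.02 TPM) and had adjusted p of 0.122, 0.0699 and 0.108. Leaving out BALB/cJ mouse 2 gave 0.0159 for Acadm and 0.0342 for Ppara, and leaving out C57BL/6J mouse 3 gave 0.0345 for Ppara. Bdh1 differed by -0.0036 ± 0.0623 on the log2 scale, and Pdk4 by 0.05 ± 0.47 with mouse 2 and 0.47 (0.207) without it.

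These ileal differences depend on scaling more than those of the colon. The median over all genes tested was 0.17 in the ileum, higher in BALB/cJ, and the median of the 8 genes 0.32. With size factors that centre the genes the values were 0.26 for Cpt2, 0.19 for Acadvl and 0.11 for Acat1, in the same direction, with adjusted p in limma of 0.279, 0.438 and 0.588. Markers of other cells differed there too. Of 7 macrophage markers 5 were higher in BALB/cJ (sums of 345 to 642 against 74.3 to 233 TPM), of 8 fibroblast and endothelial markers 6 and of 5 erythroid markers 4, and of 11 epithelial and 12 enterocyte markers 0. Epithelial sums overlapped, at 9348 to 13840 and 10379 to 14395 TPM. Their part in the ileal differences was not tested.

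In the duodenum/jejunum the largest difference was that of Ppara, at 43.3 ± 13.7 TPM for BALB/cJ against 27.9 ± 8.84 for C57BL/6J. The log2 difference was 0.63 ± 0.24 (adjusted p in limma 0.133), and the strains overlapped widely. Acat1 followed with 147 ± 25.4 against 117 ± 25.4 TPM (0.245). The ratio of means was 1.56-fold for Ppara and 1.26-fold for Acat1, and 1.46-fold and 1.18-fold without C57BL/6J mouse 2. For Pdk4 it was 1.09-fold, or 0.98-fold without C57BL/6J mouse 2. Pdk4 was at 28.4 ± 16.2 and 26.2 ± 9.99 TPM (0.912), where BALB/cJ mouse 3 at 61.1 TPM stood far above the next BALB/cJ mouse at 25.4 TPM. The SE of the 8 genes in this tissue ran from 0.09 to 0.31, against 0.04 to 0.19 in the colon, and the colon differences of Bdh1 and Acadvl would be under 2 SE here.

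**Figure D4:**
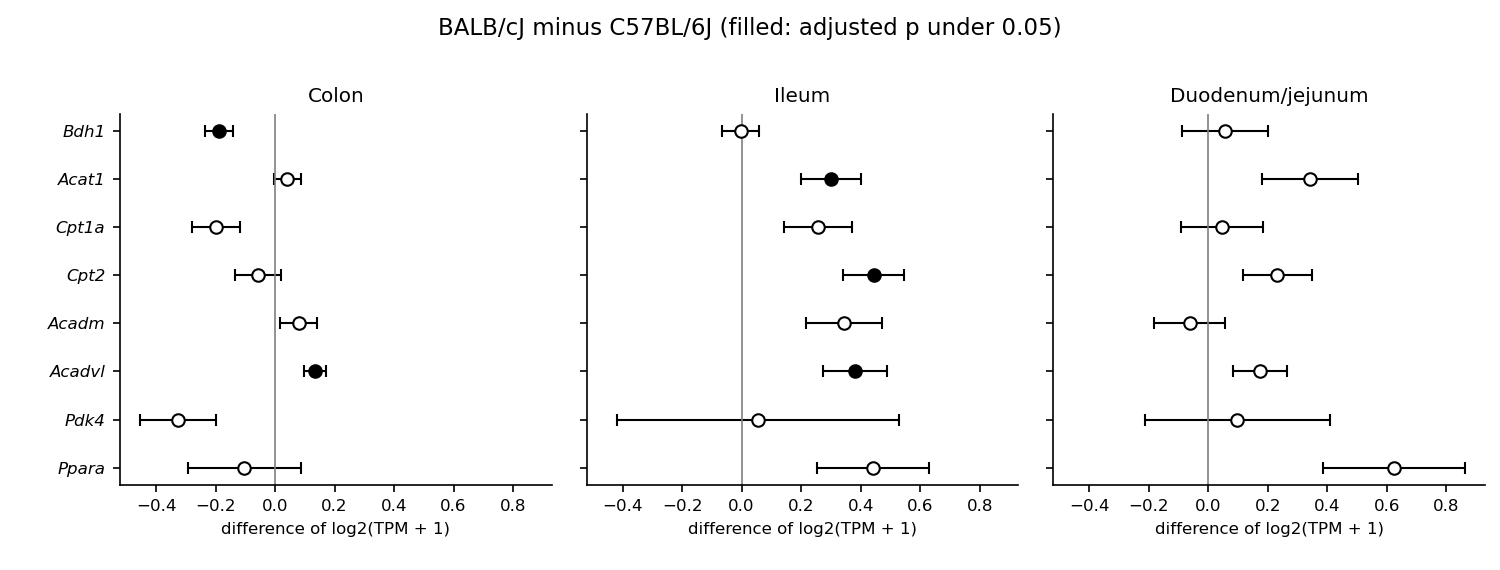
Differences of log2(TPM + 1), BALB/cJ minus C57BL/6J (horizontal axes), with SE bars, for the 8 genes (vertical axis) in each tissue. Filled points passed an adjusted p under 0.05, 2 for colon, 3 for ileum and 0 for duodenum/jejunum.

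Whether a strain difference itself differed between tissues was tested in a limma fit of all 39 libraries. Only Cpt2 passed between colon and ileum, where 4.08% of genes passed (2.62% in this direction), with -0.50 ± 0.14 (adjusted p 0.0384): it was 1.37-fold higher in BALB/cJ ileum and 1.05-fold lower in BALB/cJ colon. Leaving out any 1 of 9 mice gave adjusted p of 0.0635 to 0.104, and centring size factors gave -0.34 (0.483). With the mouse as a block Cpt2 had an adjusted p of 0.0197 and Cpt1a, at -0.45, one of 0.0176 against 0.12 without the block. Without C57BL/6J mouse 2, Acadvl passed as well, at -0.34 (0.038). Between ileum and duodenum/jejunum 0 of 8 passed, where 3.92% of genes did, and Acadm alone had an unadjusted p under 0.05 (0.0119, adjusted 0.102). Between colon and duodenum/jejunum 0 of 8 passed, where 5.59% did, and Ppara alone had an unadjusted p under 0.05 (0.0252, adjusted 0.198).

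The wider pathways place the 8 genes among their partners. In the list for ketone body synthesis, use and export, 9 of 10 genes were higher in the colon than in the ileum and 1 lower, where 46.5% of all genes were higher and 19.1% lower, with a median of 0.67 against 0.17 for all genes. Slc16a1, a carrier of ketone bodies, lactate and butyrate, was higher in the colon by 1.80 ± 0.06 (adjusted p in limma 1.1e-25), against 0.31 for Bdh1 and 0.70 for Acat1. In the strain comparisons 2 of 10 were higher and 2 lower in BALB/cJ colon, near the shares of all genes (14.5% and 10.8%), and leaving out 1 mouse gave 1 to 2 for each. In the ileum 3 of 9 tested were higher and 0 lower, where 17.2% of all genes were higher, and the 3 became 0 or 1 when any 1 of 11 mice was left out and 4 without C57BL/6J mouse 2. With centring size factors it was 0. Of 9 tested in the duodenum/jejunum, 0 passed in either direction.

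Of 29 genes of mitochondrial fatty acid oxidation, Cpt1a, Cpt2, Acadm and Acadvl among them, 17 were higher and 5 lower in the colon than in the ileum (11 and 8 with centring size factors), where 46.5% and 19.1% of all genes were. Acsl3, an acyl-CoA synthetase, was at 167 ± 17.5 TPM in BALB/cJ colon and 22.8 ± 3.58 in BALB/cJ ileum, and Acads, for short chains, at 146 ± 2.49 and 61.8 ± 5.71. Slc25a20, the carnitine carrier that works between Cpt1a and Cpt2, was higher in the colon like Cpt1a, with colon minus duodenum/jejunum at 1.25 ± 0.07 (adjusted p in limma 1.6e-18). Against the duodenum/jejunum, 11 of the 29 were higher and 13 lower in the colon, where 55.4% and 17.5% of all genes were. Between strains 6 of 29 were higher and 3 lower in BALB/cJ colon, near the 14.5% and 10.8% of all genes. In the ileum 8 of 28 were higher and 0 lower, where 17.2% of all genes were higher, and the 8 became 14 without C57BL/6J mouse 2. With centring size factors 2 were higher and 1 lower in the ileum. Of 29 in the duodenum/jejunum 3 were higher and 0 lower (1 lower without BALB/cJ mouse 6 or C57BL/6J mouse 2), where 9.5% of all genes passed in either direction. Those 3 were Acad10, Acaa2 and Acadl, and Acaa2, the last thiolase of the pathway, was at 222 ± 17.2 against 128 ± 37.9 TPM there (0.00327).

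Receptors and partners of Ppara were divided along the gut. Pparg, a related receptor, was at 79.3 ± 7.37 TPM in BALB/cJ colon and 13.4 ± 2.74 in BALB/cJ duodenum/jejunum, the reverse of Ppara. Creb3l3, a transcription factor that acts with Ppara in fasting liver, was at 4.52 ± 1.60 and 293 ± 42.1 TPM. Of 13 tested genes of this list 5 were higher and 6 lower in the colon than in the duodenum/jejunum. Of 16 tested textbook targets of the receptor, 8 were lower and 5 higher in the colon than in the duodenum/jejunum, where 17.5% and 55.4% of all genes were, with Fabp1, a fatty acid binding protein gene, at -9.93. Between strains, 2 of these 16 were higher and 2 lower in BALB/cJ duodenum/jejunum, where 9.5% of all genes passed in either direction. Vnn1, a pantetheinase, was lower by -0.86 ± 0.18 and Angptl4, an inhibitor of lipoprotein lipase, by -1.38 ± 0.35 (adjusted p in limma 0.00442 and 0.0187). Cyp4a10, a fatty acid hydroxylase, was higher at 11.7 ± 2.85 against 3.04 ± 1.67 TPM (adjusted p in limma 2.9e-04).

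Pdk4 was set beside the other genes of the pyruvate dehydrogenase complex and its control. Of 10 tested, 8 were higher and 2 lower in the colon than in the ileum (4 higher with centring size factors), where 46.5% and 19.1% of all genes were. Pdk1, another inhibiting kinase, was higher in the colon than in the duodenum/jejunum, where Pdk4 was lower, at 54.1 ± 3.03 TPM in BALB/cJ colon and 18.7 ± 3.08 in BALB/cJ duodenum/jejunum. It was higher in BALB/cJ than in C57BL/6J colon by 0.42 ± 0.05 (adjusted p in limma 5.3e-05), where Pdk4 was at -0.33 ± 0.13 (0.0768). Pdp1, a phosphatase that reactivates the complex, was higher in the colon than in the duodenum/jejunum by 1.49 ± 0.08 (2.2e-18). Of 6 genes listed for control of malonyl-CoA, the inhibitor of Cpt1a, 6 were higher in the colon than in the ileum. Among them was Prkaa2, a catalytic subunit of AMP-activated kinase, by 1.80 ± 0.09 (adjusted p in limma 6.5e-20). Malonyl-CoA itself was not measured.

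Across the 39 libraries the genes most like each of the 8 were found by Spearman correlation of log2(TPM + 1), as a description in which tissue, strain and library scaling are shared. Cpt1a was closest to Zfp146 and Champ1 (0.93 each), and Pdk4 to Ces1e, Ces2g and Aadac (0.89 each). Acat1 was closest to Chchd3 (0.87), Ndufb5 (0.86) and Dlat (0.86), and Acadvl to Pank3 (0.88), Hadhb (0.86) and Uqcrfs1 (0.86). Bdh1 had Slc25a39 (0.84) and Pptc7 (0.80) among its closest genes. Ppara was closest to Zfyve9 (0.82), Bche (0.80) and Mapk6 (0.79), Cpt2 to Shpk (0.79), Aldh3a2 (0.78) and Tcn2 (0.78), and Acadm to Vapb (0.75), Ndufa8 (0.75) and Snx3 (0.75). Among the 8 themselves the highest correlation over all libraries was that of Acat1 with Acadvl (0.77), followed by Cpt2 with Ppara (0.71). Once each group's mean was taken away, Cpt2 with Acadvl was highest (0.75) and Cpt1a was near 0 with Acat1, Acadm, Acadvl and Pdk4 (-0.08 to 0.05), against 0.35, 0.45, 0.02 and -0.21 over all libraries.

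Whether a mouse high for a gene in 1 tissue was also high in another was computed in 24 relations, each over 13 mice with the strain mean taken away. Cpt1a had a Pearson r of 0.715 and a Spearman rho of 0.808 between colon and duodenum/jejunum (permutation test, adjusted p 0.159 and 0.109). Between colon and ileum r was 0.647 and rho 0.709 (adjusted p 0.159 and 0.156, permutation test). Without the 2 mice farthest from the colon median, r was 0.519 for colon with duodenum/jejunum and 0.707 for colon with ileum. None of the 24 passed adjustment with 13 mice, and without C57BL/6J mouse 2 Cpt1a passed for colon with ileum, at r 0.838 (permutation test, adjusted p 0.037, with rho 0.783 at 0.0674). Ppara between ileum and duodenum/jejunum was at r 0.654 and rho 0.626 (permutation test, adjusted p 0.159 and 0.201), and r was 0.552 without the 2 farthest mice.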

How the data were processed

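The 8 genes and all lists were chosen with earlier results of these data known. For each tissue the authors deposited a table of log2(TPM + 1) values per gene, made with kallisto 0.44.0 on GRCm38 per the submitters' processing notes; the transcript annotation and the summing to genes are not given in the sources used here. Per the labels' protocols, extraction was by PureLink kit and libraries were TruSeq total RNA with RiboZero depletion. The depth behind a value is unknown, so no counting interval is given. The 26 entries named by a number were left out, 0 columns belonged to other samples, and 0 pairs of libraries were identical.

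Strains were compared within a tissue (13 libraries), and tissues and strain-by-tissue differences in 1 fit of 39 libraries with 6 group means. The test was limma 3.58.1 (R 4.3.3, variance trend), 2-sided, with a pseudocount of 1. A gene entered if 6 or more libraries of the fit reached 1 TPM, as all 8 did, and was called at a Benjamini-Hochberg adjusted p under 0.05 over all genes tested. Folds are ratios of mean TPM, and other differences are of log2(TPM + 1), which understates changes of low genes. The code was tested on simulated data.

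Named were the 8 genes and, per list and comparison, up to 3 called genes with the smallest adjusted p and a group mean of at least 5 TPM, of which those nearest to the 8 are printed. Acsl5 and Pdhb were not analysed here. Some genes of the lists are counted but not reported here by name. Alternatives were a pseudocount of 0.1, no filter, relative log expression size factors (the centring size factors of the text), the mouse number as a block, and leaving out each mouse. By the labels, 1 strain and number in 3 tissues is 1 animal, so the number pairs tissues. The median correlation of deviations from group means was 0.14 for colon with ileum, 0.24 for ileum with duodenum/jejunum and 0.10 for colon with duodenum/jejunum. Relations between tissues over mice were added after the data were seen.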

Additional observations from a re-analysis of the deposited data

Results flagged for a closer look

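Of 48 groups, 1 per gene, tissue and strain, 9 held a mouse that stood apart from the others by Dixon's test, which marks about 1 group in 20 by chance. C57BL/6J mouse 2 was the highest of its group in the library labelled ileum for Acat1 (110.3 TPM), Acadvl (140.2 TPM) and Pdk4 (30.1 TPM). That library went against Fabp6, Slc10a2 and Tmprss15. The one labelled duodenum/jejunum went against Fabp6 and Slc10a2 but had Tmprss15 within the range of the others. BALB/cJ mouse 3 was the highest of its group for Pdk4 in the ileum (8.63 TPM) and in the duodenum/jejunum (61.1 TPM). C57BL/6J mouse 6 was lowest for Bdh1 in the colon (79.6 TPM) and BALB/cJ mouse 6 for Acadvl in the colon (146 TPM). BALB/cJ mouse 2 was lowest for Cpt2 in the ileum (61.9 TPM), where it also had the lowest summed enterocyte markers of the BALB/cJ mice (8237 TPM). C57BL/6J mouse 3 was highest for Ppara in the ileum (30.8 TPM).

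The strain difference of Cpt2 in the colon differed from that in the ileum by -0.50 in the limma fit of 39 libraries. It is the only one of the 24 such contrasts of the 8 genes that passed.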

How the results depend on the processing

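Of the differences of single genes among the 8, 5 changed sign with relative log expression size factors, 1 with a pseudocount of 0.1 TPM and 0 without the filter on low values. Acat1 between strains in the ileum lost its call with that pseudocount (adjusted p in limma 0.0501) and without the filter (0.0706). With those size factors 1 of the 8 genes was called between strains in the colon and 0 in the ileum (2 and 3 in the main analysis), 4 between colon and ileum (7) and 0 for the strain difference in colon against ileum (1). All genes called fell from 3169 to 1824 for the ileal strain difference and from 672 to 120, or to 391 with no filter, for the strain difference in ileum against duodenum/jejunum. The signs that turned with them were those of Pdk4 between strains in the ileum (-0.0929), Cpt1a for ileum minus duodenum/jejunum (-0.0063), and Bdh1 (-0.2407), Acat1 (-0.2264) and Acadm (-0.1422) for colon minus duodenum/jejunum. The cause was not tested. With the pseudocount of 0.1, Pdk4 turned to 0.0325 for the strain difference in ileum against duodenum/jejunum.

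With the replicate block, 0 of the 8 were called between strains in the colon and 0 in the ileum, where 929 genes passed and Pdk4 turned to -0.0631, but there the number pairs different animals and its fit holds fewer mice. Where the block pairs tissues of 1 mouse, 2 were called for the strain difference in colon against ileum, and the block changed no other call of the 8 than those of Cpt1a and Ppara given above.

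Leaving out each mouse in turn gave 1948 to 4041 genes and 1 to 4 of the 8 called in the ileal strain comparison, 0 to 2 of the 8 for colon against ileum, and 188 to 1017 genes for ileum against duodenum/jejunum. Small differences changed sign: between strains, Bdh1 ran from -0.0285 to 0.0211 and Pdk4 from -0.1374 to 0.472 for ileum, and for duodenum/jejunum Bdh1 from -0.0196 to 0.1255, Cpt1a from -0.0367 to 0.1469 and Pdk4 from -0.1433 to 0.1963. For the strain difference in ileum against duodenum/jejunum, Bdh1 ran from -0.1394 to 0.0407, Acat1 from -0.1171 to 0.1586 and Pdk4 from -0.3023 to 0.5849, and for colon against duodenum/jejunum Acadvl from -0.0796 to 0.0023. None of these was called in the main analysis. TPM gives no depth, so precision rests on the spread between mice alone.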

Other observations

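Most genes of peroxisomal fatty acid oxidation were lower in the colon than in the small intestine. Of 16 genes, 10 were lower and 2 higher in the colon than in the ileum, and 12 lower and 2 higher in the colon than in the duodenum/jejunum, in limma, where 19.1% and 17.5% of all genes were lower. Scp2, a sterol carrier and thiolase gene, was at 281 ± 18.1 TPM in BALB/cJ colon (n = 6), 677 ± 163 in ileum and 1016 ± 121 in duodenum/jejunum. Between strains, Acaa1b, a peroxisomal thiolase gene with a near-identical paralog, was higher in BALB/cJ by 2.10 ± 0.58 in the ileum (adjusted p in limma 0.0236) and by 1.15 ± 0.28 in the duodenum/jejunum (0.0151). Decr2, a peroxisomal reductase gene, was lower in BALB/cJ in all 3 tissues, by -0.54 ± 0.06 for colon, -0.54 ± 0.13 for ileum and -0.46 ± 0.13 for duodenum/jejunum (adjusted p in limma 1.8e-05, 0.0132 and 0.0316).

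Acad10, an acyl-CoA dehydrogenase family gene, was higher in BALB/cJ in all 3 tissues, at 14.7 ± 1.26 against 9.97 ± 0.919 TPM in the colon, 11.5 ± 1.41 against 6.66 ± 2.13 in the ileum and 13.2 ± 2.34 against 6.25 ± 1.69 in the duodenum/jejunum (adjusted p in limma 8.1e-05, 0.00605 and 0.00101). Pdha1, the catalytic subunit of pyruvate dehydrogenase, was lower in BALB/cJ in all 3, by -0.35 ± 0.04, -0.21 ± 0.06 and -0.41 ± 0.09 (8.4e-06, 0.0234 and 0.0122).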
